A study of Mus musculus with 6 samples.

Results

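The small proline-rich proteins of the SPRR1 and SPRR2 classes were followed through 10 probes, 1 for each of the genes Sprr1a, Sprr1b, Sprr2a1, Sprr2b, Sprr2d, Sprr2e, Sprr2f, Sprr2g, Sprr2i and Sprr2k, out of 46116 probes on the array. The probes were all those to which the platform's annotation gives one of these symbols. Papillomas, which are benign skin tumours, had been raised on Atf2 wild-type and Atf2 knockout mice of a mixed FVB and C57bl6 background by 1 dose of the mutagen DMBA and then 30 weeks of the tumour promoter TPA, and the animals bore them at about 9 months of age. Both pools therefore carried the same tumour treatment and differed in the Atf2 genotype. The wild-type pool combined total RNA of papillomas from 2 mice and the knockout pool from 3 mice. Cy3-labelled material of each pool was run on 3 Illumina bead arrays, all 6 on 1 chip. These are technical replicates, so every SD, SE, interval and p given here measures technical spread between arrays and says nothing of the spread between mice.

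SPRR proteins are short, rich in proline, and built from a head, a run of repeats and a tail. Their heads and tails hold glutamines and lysines, which transglutaminases join to loricrin, involucrin and other proteins to make the cornified envelope, the tough shell that replaces the membrane of a keratinocyte as it dies. The genes lie side by side in the epidermal differentiation complex, together with those of involucrin, loricrin, the late cornified envelope proteins and many S100 proteins. In normal mouse skin they are expressed weakly or in places, and they are known to be induced in wounded, inflamed and TPA-treated epidermis and in squamous tumours. ATF2 is a basic leucine zipper factor that pairs with itself or with JUN, a subunit of the AP-1 factors, and AP-1 and Ets sites are known to drive human SPRR promoters.

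Median raw intensity was 135.8 to 148.2 on the wild-type arrays and 109.9 to 135.5 on the knockout arrays, with knockout array 3 the dimmest. A probe was counted as above background where it exceeded the most frequent intensity of its array by 3 SDs of the values below that point, which held for 32.6% to 34.8% of probes on the wild-type arrays and 29.1% to 31.4% on the knockout arrays. The targeted gene gave no check of the labels. Of 4 Atf2 probes, 3 were above background on none of the arrays. For the other probe the wild-type arrays gave 184.5, 176.2 and 186.3 and the knockout arrays 171, 133.2 and 103 (log2 difference -0.28, SE 0.13, limma adjusted p = 0.109), and whether any of the 4 lies in the deleted stretch is not known here. Each pool filled 3 neighbouring positions of the chip, so position and genotype cannot be told apart.

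The Sprr genes did not move together. Sprr2k and Sprr2b rose in the knockout pool, Sprr1a fell, and the other 7 probes stayed within 2-fold of the wild-type pool. All 10 probes were above background on all 6 arrays, and all 10 were bright enough to be tested. A probe passed when limma's adjusted p was under 0.05 and the difference was at least 2-fold (1 on the log2 scale). The 2 rises among 10 probes stand beside 0.984% of all 23058 tested probes that rose, and the 1 fall beside 3.9% that fell. Signed differences are knockout minus wild type on the log2 scale of background-corrected, quantile-normalized intensity, and the raw intensities quoted are before that step. The median difference over the 10 genes was 0.18, against 0.08 over all 12096 tested genes, each taken on its brightest probe.

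**Figure D1:**
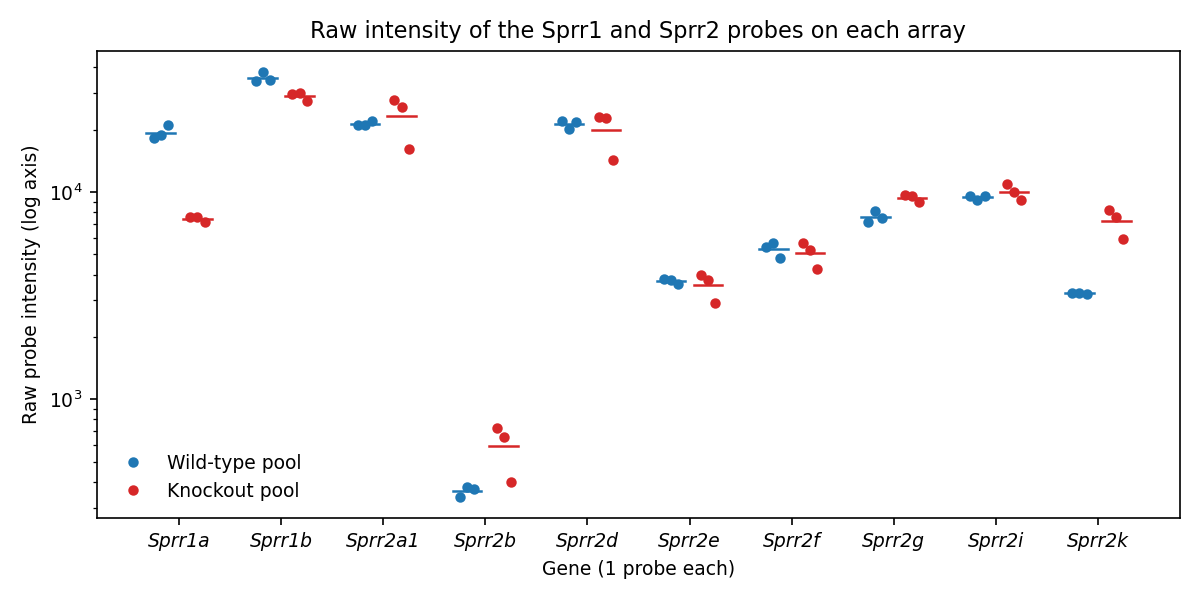
Raw probe intensity (log axis) of the 10 Sprr1 and Sprr2 probes on the 3 wild-type (blue) and 3 knockout (red) arrays, points being arrays and lines the pool means. The arrays of the pools stand apart for Sprr2k and Sprr2b, where the knockout arrays are higher, and for Sprr1a, where the 3 knockout arrays lie between 7162 and 7601 and the 3 wild-type arrays between 18177 and 21045. Raw arrays also do not overlap for Sprr2g, higher in the knockout pool, and Sprr1b, lower there. The share of all probes whose raw arrays do not overlap was not computed.

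Sprr2k, a member of the SPRR2 class at the end of the Sprr2 row that faces Sprr1b, had the largest difference of the 10. The wild-type arrays gave raw intensities of 3252, 3262 and 3213, and knockout arrays 1, 2 and 3 gave 8226, 7612 and 5930. Every knockout array lay far above every wild-type array, and the wild-type arrays were nearly equal. The pool means were 3242 ± 25.8 and 7256 ± 1190 (SD, n = 3 arrays each), and after normalization the rise was 1.35 on the log2 scale (SE 0.08, 95% interval 1.18 to 1.52, limma adjusted p = 6.86e-08), or 2.55-fold.

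Sprr2b, another SPRR2 gene, was read by the dimmest of the 10 probes and also rose. Its wild-type values were 338.8, 376.9 and 370.5 and its knockout values, in array order, 724.3, 656.4 and 398.8. The pools did not overlap, but knockout array 3 lay close to the wild-type arrays. The means were 362 ± 20.4 and 593 ± 172 (SD, n = 3 arrays each), with a normalized rise of 1.07 (SE 0.12, 95% interval 0.81 to 1.33, limma adjusted p = 1.54e-05), or 2.10-fold. The rise lay just past the 2-fold limit. It was 0.94 with the authors' normalized values, 0.981 without knockout array 1 and 0.997 without knockout array 2, each within the limit, and 1.21 without knockout array 3.

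Sprr1a, which encodes a cornified envelope precursor and is also known in mice as a gene that injured sensory neurons switch on, fell. The wild-type arrays gave 18177, 18872 and 21045, while the knockout arrays gave 7601, 7582 and 7162. The arrays of the 2 pools were widely separated, and the spread within each pool was small beside the gap. The means were 19365 ± 1500 and 7448 ± 248 (SD, n = 3 arrays each). The normalized difference was -1.21 (SE 0.09, 95% interval -1.40 to -1.01, limma adjusted p = 5.92e-07), so that the wild-type pool was 2.31-fold higher.

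Sprr1b, the other SPRR1 gene and also an envelope precursor, did not share the fall of Sprr1a. Its wild-type values were 34303, 38042 and 34632 and its knockout values 29734, 30203 and 27455. The raw values of the pools did not overlap, but after normalization they did, and the difference was -0.13 (SE 0.07, 95% interval -0.29 to 0.03, limma adjusted p = 0.196). This was one of the brightest probes on the arrays, with only 0.039% of probes brighter, and the brightest value on any array was 52840. How far such a signal is compressed at the top of the range was not tested.

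Within an array, the ratio of 2 probes does not depend on how arrays are scaled to each other, although it says nothing about which transcript is more abundant. The raw signal of Sprr1a over that of Sprr1b was 0.53, 0.496 and 0.608 in the wild-type pool against 0.256, 0.251 and 0.261, a 2.12-fold lower ratio in the knockout pool. Sprr2k over Sprr2e was 0.853, 0.864 and 0.887 against 2.07, 2.01 and 2.04, a 2.35-fold higher ratio. On knockout array 3, the dimmest array, this ratio was as high as on the other knockout arrays. Sprr2k over its neighbour Sprr1b went from 0.0948, 0.0857 and 0.0928 to 0.277, 0.252 and 0.216. Sprr2k over Sprr2i went from 0.341, 0.357 and 0.334 to 0.75, 0.759 and 0.647. Sprr2b over Sprr2d, with background included in both signals, went from 0.0154, 0.0186 and 0.017 to 0.0314, 0.0289 and 0.028. In all 5 pairs the arrays of the pools did not overlap. The pairs were chosen after the values had been seen and were given no test.

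**Figure D2:**
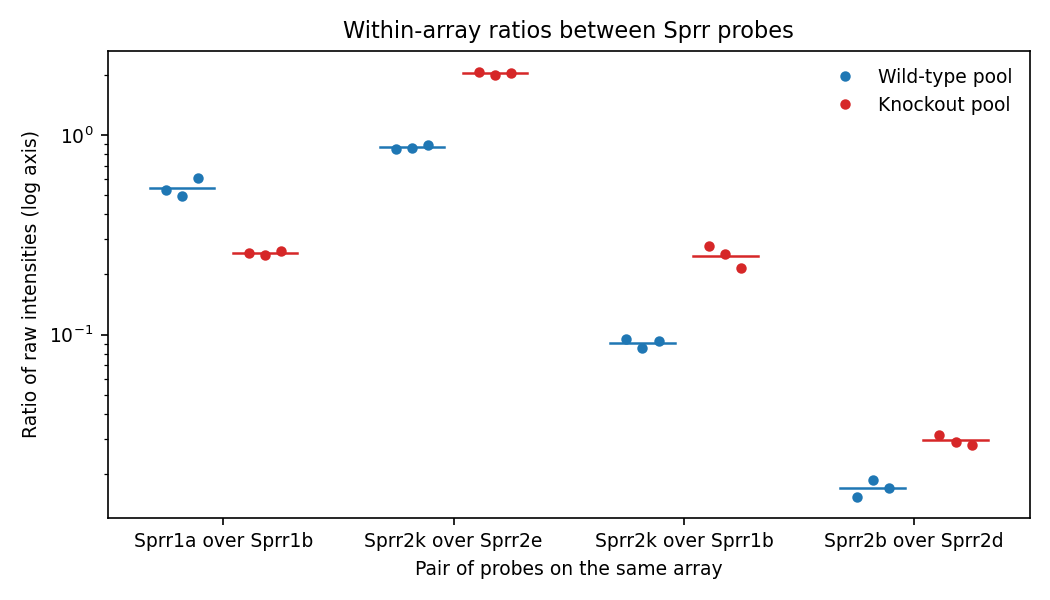
Ratio of the raw intensities of a pair of probes on the same array (log axis), for 3 wild-type (blue) and 3 knockout (red) arrays, with lines at the means. The Sprr1a over Sprr1b ratio is lower on every knockout array (0.251 to 0.261 against 0.496 to 0.608), and the 3 other ratios drawn are higher on every knockout array.

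Of the remaining SPRR2 probes, 3 were higher by less than 2-fold. Sprr2g, which RefSeq lists as a transcribed pseudogene, read 7162, 8088 and 7504 in the wild-type pool against 9707, 9542 and 8961, a difference of 0.46 (SE 0.09, limma adjusted p = 0.00091). Its raw arrays did not overlap between the pools. Sprr2a1, whose SPRR2A protein is known from the mouse gut as a bacteria-induced epithelial protein, read 21071, 21116 and 21959 against 27722, 25876 and 16228. Knockout arrays 1 and 2 lay above all wild-type arrays and knockout array 3 below them before normalization, and the normalized difference was 0.30 (SE 0.09, adjusted p = 0.0207). Sprr2i read 9530, 9137 and 9625 against 10965, 10030 and 9165, a difference of 0.26 (SE 0.08, adjusted p = 0.0216).

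The last 3 did not pass the adjusted p. Sprr2f, known in mice as an oestrogen-induced gene of the uterus, read 5453, 5664 and 4833 against 5700, 5262 and 4233 and was at 0.09 (95% interval -0.09 to 0.27, limma adjusted p = 0.426). Sprr2e read 3813, 3776 and 3621 against 3970, 3782 and 2908 and was at 0.07 (interval -0.10 to 0.24, adjusted p = 0.509). Sprr2d read 21972, 20258 and 21802 against 23090, 22718 and 14239 and was at 0.05 (interval -0.17 to 0.27, adjusted p = 0.741). In each the arrays of the pools overlapped. Sprr2d and Sprr2a1, like Sprr2b, were clearly lower on knockout array 3 than on the other knockout arrays, and without that array they were at 0.17 and 0.39. Counted by the adjusted p alone, 6 of the 10 members passed, beside 38.5% of all tested probes, and the normalized arrays of the pools did not overlap for 6 of the 10, beside 48.4%. The count by adjusted p moved between 4 and 8 with an array left out. It was 4 without wild-type array 1 or 2, where Sprr2a1 and Sprr2i were lost, and 8 without knockout array 3, where Sprr1b and Sprr2d were added.

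The genes of the class resemble each other closely, and Sprr2a1 has near-copies, Sprr2a2 and Sprr2a3, in the same row. Probe sequences were not used here, so which of these transcripts a probe also binds was not tested, and each value belongs to the probe carrying that symbol. Because papillomas are mixtures of cells, fewer cells expressing a gene and less of its RNA per cell cannot be told apart in these pools.

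Read along chromosome 3 in the RefSeq order of the genes, the rises and the fall were not in 1 block. Sprr2b and Sprr2k stood near opposite ends of the Sprr2 row, with Sprr2d, Sprr2e, Sprr2f, Sprr2g and Sprr2i between them at 0.05 to 0.46. Beyond Sprr2k came Sprr1b at -0.13, Sprr3 and then Sprr1a, the gene that fell. Sprr3, the gene of an SPRR protein best known from the oesophageal lining, read 10024, 10668 and 10341 in the wild-type pool against 5338, 5603 and 4575. Its pools did not overlap, and its difference of -0.84 (SE 0.08, limma adjusted p = 4.18e-06) was on the side of Sprr1a but within 2-fold. The pseudogene Sprr2j-ps, next to Sprr2k, was at -0.08 (adjusted p = 0.538). Sprr4, past Sprr1a, read 214.3, 208.3 and 235.9 on wild-type arrays but lay at background (125.5, 123.3 and 110.3) in the knockout pool, which gives a level at least 1.26-fold lower there. That bound was the wild-type mean against the mean, over the knockout arrays, of the probe's own value or, if higher, the array's lowest normalized value above background. None of these 3 relatives passed the threshold in the reported setting. With a smaller background offset of 16, Sprr4 passed as a fall (-1.121), with its knockout values still at background.

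**Figure D3:**
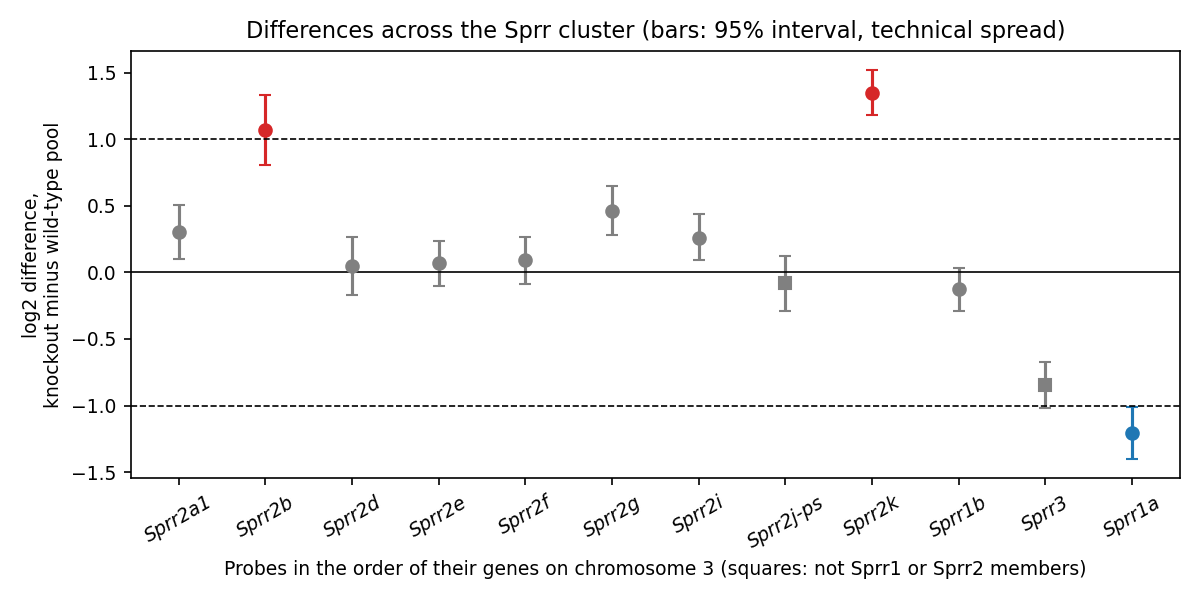
Difference between the pools (log2, knockout minus wild-type) for 12 Sprr probes in the order of their genes on chromosome 3, with 95% intervals from limma that cover technical spread. Circles are Sprr1 and Sprr2 members, squares Sprr2j-ps and Sprr3, and dashed lines the 2-fold limit. Sprr2b (1.07) and Sprr2k (1.35) lie above the limit, Sprr1a (-1.21) below it, and the members between Sprr2b and Sprr2k within the limit at 0.05 to 0.46. Sprr2j-ps, also drawn between Sprr2b and Sprr2k, is at -0.08.

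Promoter sequence is shown for the 3 genes that passed and for Sprr1b and Sprr2e, relatives that did not, because these genes carry the contrast within the family. RefSeq windows of build GRCm38.p6 were found for 9 of the 10 members. Capitals mark matches to TGANTCA, the letters of the AP-1 site with the middle base left free, where the usual site has C or G. They also mark matches to TGACNTCA, the letters of the cyclic AMP response element with 1 base left free. The 250 bases before each annotated start follow, read 5′ to 3′ along the gene.
Sprr2k (chr3:92432332-92432581, plus strand): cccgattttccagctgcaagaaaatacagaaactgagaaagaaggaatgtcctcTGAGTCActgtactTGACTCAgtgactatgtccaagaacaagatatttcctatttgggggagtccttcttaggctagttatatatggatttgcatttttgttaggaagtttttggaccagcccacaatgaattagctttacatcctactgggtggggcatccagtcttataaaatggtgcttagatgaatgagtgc
Sprr2b (chr3:92316455-92316704, plus strand): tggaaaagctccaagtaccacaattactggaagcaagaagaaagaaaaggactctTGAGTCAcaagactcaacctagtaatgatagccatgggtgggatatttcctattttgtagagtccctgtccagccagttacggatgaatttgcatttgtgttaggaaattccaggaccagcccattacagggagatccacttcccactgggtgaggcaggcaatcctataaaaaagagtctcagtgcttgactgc
Sprr1a (chr3:92485882-92486131, minus strand): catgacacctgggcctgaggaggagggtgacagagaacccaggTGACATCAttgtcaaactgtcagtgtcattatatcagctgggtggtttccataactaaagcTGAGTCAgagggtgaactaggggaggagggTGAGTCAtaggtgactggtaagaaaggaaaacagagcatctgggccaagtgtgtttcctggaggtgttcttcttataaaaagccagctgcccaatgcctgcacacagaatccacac
Sprr1b (chr3:92438780-92439029, minus strand): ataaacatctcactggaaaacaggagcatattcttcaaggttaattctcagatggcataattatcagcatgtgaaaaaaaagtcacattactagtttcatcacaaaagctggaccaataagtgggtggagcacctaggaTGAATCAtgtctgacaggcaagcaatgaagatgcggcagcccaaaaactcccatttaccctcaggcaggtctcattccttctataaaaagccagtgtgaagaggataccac
Sprr2e (chr3:92351893-92352142, plus strand): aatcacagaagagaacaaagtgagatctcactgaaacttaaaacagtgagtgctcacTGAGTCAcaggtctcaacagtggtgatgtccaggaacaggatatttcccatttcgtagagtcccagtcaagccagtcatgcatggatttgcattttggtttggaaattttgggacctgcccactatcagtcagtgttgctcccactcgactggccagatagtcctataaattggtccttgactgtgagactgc

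An AP-1 match was common to genes that rose, fell and did neither. On either strand, TGANTCA was found in 8 of the 9 windows, all except that of Sprr2a1, and in 6.75% of 32841 mouse promoter windows of the same length. The Sprr2a1 window also lacked the TATAAA letters found in the other 8. Whether it covers the same stretch of promoter as the windows of its relatives was not tested. The windows of near-copies share their descent, so the 8 are not independent. In Sprr2b, Sprr2d, Sprr2e, Sprr2f, Sprr2i and Sprr2k the match read TGAGTCA and began 193 to 197 bases before the start. Sprr2k had a further match, TGACTCA, beginning 182 bases before the start. Sprr1a had a pair, both TGAGTCA, beginning 146 and 116 bases before its start, whereas Sprr1b had TGAATCA, beginning 111 bases before. With A in the middle, the Sprr1b match is a looser one than TGAGTCA or TGACTCA.

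The full cyclic AMP response element, TGACGTCA, which ATF2 is known to bind, was in none of the 9 windows and in 1.55% of all windows. Its looser form TGACNTCA, which includes it, was in Sprr1a, as TGACATCA beginning 207 bases before the start, in Sprr2f, as TGACCTCA beginning 219 bases before, and in 7.49% of all windows. Sprr1a fell and Sprr2f was at 0.09. The Ets letters AGGAAG were in Sprr2a1, Sprr2f and Sprr2k (29.5% of all windows), and the Klf letters CACCC, which in Sprr1a overlap an AP-1 match, were in Sprr1a, Sprr1b, Sprr2b and Sprr2k (52.0%). Matching was exact, so the Sprr2b window, which holds AGGAAA, was not counted for Ets. The letters TATAAA were in the same 8 windows as the AP-1 letters, against 12.4% of all. Between the 6 Sprr2 genes with an AP-1 match, windows were 70% to 90.3% identical over 217 to 248 aligned bases. The highest was Sprr2d with Sprr2e at 90.3%. Pairs of an Sprr1 with an Sprr2 window reached the lower part of this range over fewer aligned bases. Sprr1b with Sprr2b was at 75.4% over 191 and Sprr1a with Sprr2b at 75.1% over 197, while Sprr1b with Sprr2f was at 69.4% over 98. Counted over aligned bases alone, values near 70% therefore do not set the Sprr2 windows apart from those of Sprr1. Identical bases as a share of the whole window did separate these 6 from Sprr1. The lowest pair among the 6 was at 66.4% (Sprr2i with Sprr2k). The highest pair of an Sprr1 window with 1 of the 6 was at 59.2% (Sprr1a with Sprr2b). The Sprr2a1 window did not join the 6 by this share, reaching 56.8% at most (with Sprr2d). A match describes these letters and does not show that a factor binds there.

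**Figure D4:**
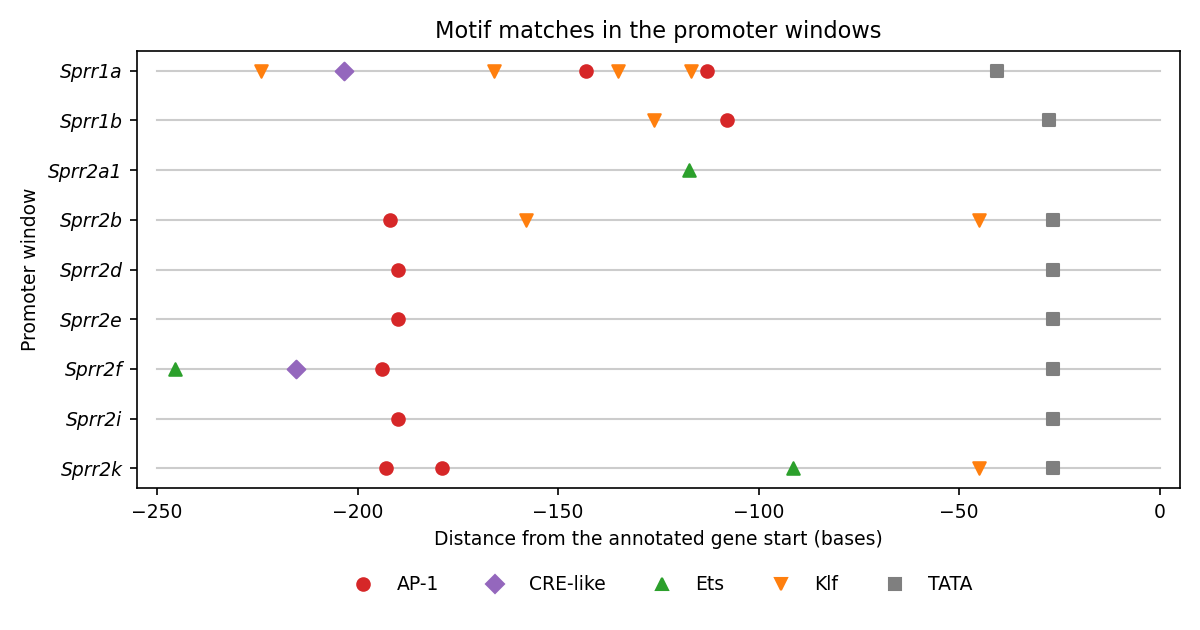
Motif matches in the promoter windows of 9 members, by distance in bases from the annotated gene start. Each symbol is the centre of a match on either strand, for the AP-1, CRE-like, Ets, Klf and TATA letters given above. The windows of 6 Sprr2 genes have an AP-1 match at nearly the same distance, and Sprr1a has a pair closer to the start and a CRE-like match.

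Transcripts of the proteins that make the cornified envelope together with SPRR moved unevenly too. Of 13 tested late cornified envelope genes, which encode small structural proteins of the outermost layers and lie in the same complex, 7 rose and none fell on their brightest probes, with a median of 1.04, against 1.12% of all tested genes that rose and 2.48% that fell. All 7 belong to the Lce1 family. Whether their probes also bind transcripts of relatives was not tested, so the 7 may not be independent. Lce1a2 rose by 1.34 (SE 0.08, limma adjusted p = 1.17e-07), Lce1i by 1.33 and Lce1h by 1.31, close to the rise of Sprr2k. A dimmer probe of Lce3b fell (-1.41), while its brightest was at -0.02, and Lce3c was at 0.06. Another probe of Lce1h was at 0.35. The count of rises was 6 without knockout array 2 and 7 without each other array in turn.

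Of 21 tested envelope partners and cross-linking enzymes, 2 rose and 2 fell, with a median of 0.14. Casp14, a protease of terminal differentiation, rose by 1.06 and Crnn, the gene of the S100-fused protein cornulin, by 1.03. Scel, the gene of the envelope protein sciellin, fell (-1.28) and so did Ivl, the gene of involucrin (-1.01). The calls of Crnn and Ivl were lost with the authors' values (0.83 and -0.97), without background correction, with an offset of 100 and with 75th percentile scaling, while Casp14 and Scel passed in each of these. Without knockout array 3, Casp14 (0.94) and Ivl (-0.996) were just within the limit, and Ivl was also within it without wild-type array 3 (-0.995) or knockout array 1 (-0.95). Without knockout array 2, Anxa1 also fell (-1.01). The transglutaminases that join SPRR proteins into the envelope did not pass: Tgm1 was at 0.28 (limma adjusted p = 0.0207), Tgm5 at 0.57 and Tgm3 at -0.58. Lor, the gene of loricrin, the main partner of SPRR proteins, was at 0.23 (adjusted p = 0.0437). Apart from the partners that passed, the annexin gene Anxa1 (-0.93) and the repetin gene Rptn (0.80) were among the furthest from 0.

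Among 12 tested S100 genes of the complex, S100a11, whose protein is cross-linked into the envelope, fell (-1.24, SE 0.08, limma adjusted p = 1.81e-07) and S100a3, a gene of the hair cuticle, rose (1.04). The rise of S100a3 was within the limit with the authors' values (0.92), in the same 3 other processing settings, and without wild-type array 2 or knockout array 3. The median was -0.06. Of 26 tested transcription factors of Sprr promoters or of epidermal differentiation, none rose and 3 fell on their brightest probes, with a median of -0.12. Grhl3, a factor of barrier formation, fell (-2.48, above background on 1 knockout array), as did Nfe2l2, the gene of the oxidative stress factor NRF2 (-1.86), and Elf5, an epithelial Ets factor (-1.15, and -0.98 with the authors' values). A dimmer probe of Elf5 was at 0.04. Counted on any probe, 6 factors fell, but such a count grows with the number of probes per gene. The share of all genes that fell on any probe was not computed, so the 6 cannot be judged against it. Nfe2l2 had a further probe that was not above background, and the Ets factor gene Elf3, at -0.22 on its brightest probe, was at least 1.38-fold lower on a dimmer one that was not above background in the knockout pool (limma adjusted p = 8.15e-08). Grhl1, a relative of Grhl3, differed by -0.41 on the brightest probe and was at least 1.67-fold lower on a dimmer one. Cebpa, a factor of differentiating keratinocytes, differed by -0.23 on the brightest probe, and a dimmer probe, above background on 1 knockout array, gave -1.11. Among the AP-1 genes, Fos was at -0.63, Fosl1 at -0.12, Fosl2 at 0.15, Jun at 0.35, Junb at 0.26, Jund at 0.67 and Fosb at 0.54, all within 2-fold. Klf4, a factor of terminal differentiation, was at -0.29.

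**Figure D5:**
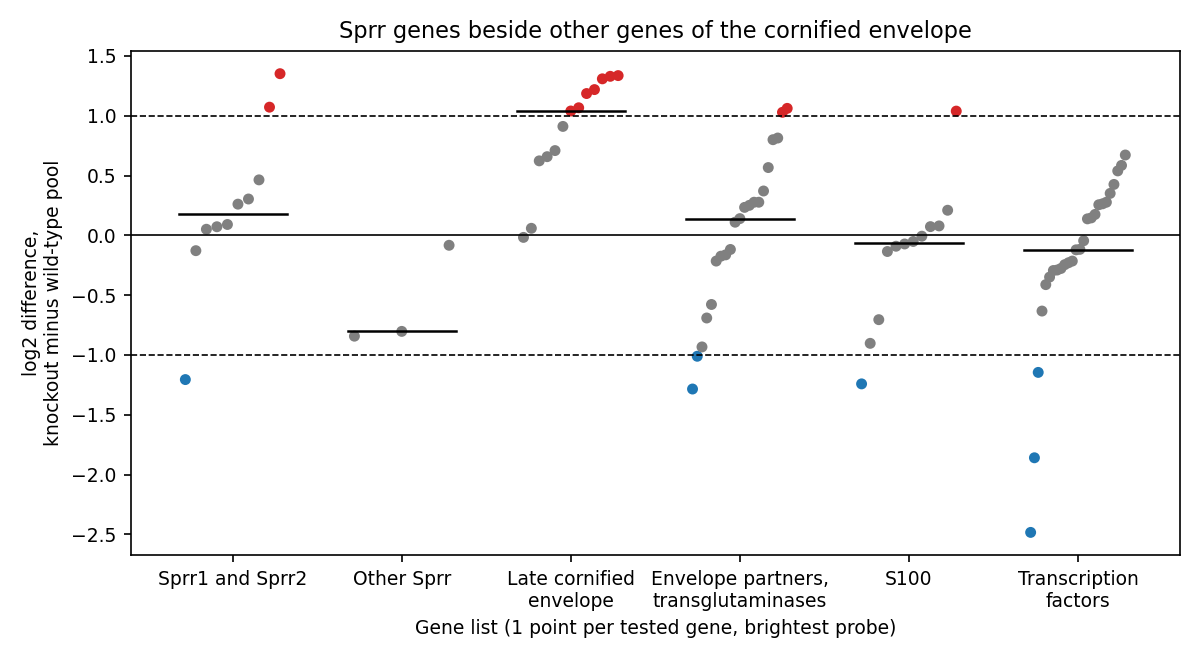
Difference between the pools (log2, knockout minus wild-type) of each tested gene on its brightest probe, by gene list. Red points rose and blue points fell past the threshold, grey points did not pass, bars are medians and dashed lines the 2-fold limit. Sprr4, among the other Sprr genes, is drawn at its measured value although only a bound holds for it. The late cornified envelope genes have a median of 1.04, and the Sprr1 and Sprr2 genes reach from -1.21 to 1.35.

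Markers of the cell types in a papilloma also differed between the pools, and their part in the Sprr differences was not tested. Both defining basal keratin genes, Krt14 and Krt5, were well above background on every array, with Krt5 at 0.14. The Krt14 probe was brighter than nearly all others (0.00217% brighter), and there quantile scaling sets the value by rank, so that its difference of -0.07 says little. On brightest probes, 1 of 7 tested basal markers rose (Krt15, 3.12). A dimmer probe of the integrin gene Itga6 rose (1.69, its brightest at 0.24), as did another (1.81) detected over background in 1 of the 3 wild-type arrays, and one of the collagen gene Col17a1 fell (-1.18, its brightest at -0.03). Of 5 tested spinous markers 1 rose (Krt10, 1.52, from a raw mean of 8816 to 22305), while Krt1, the partner keratin of Krt10, was at -0.27 and the median was 0.14. Their summed raw intensity was 43225 to 45013 on the wild-type and 55346 to 62492 on the knockout arrays, a difference made mostly by Krt10. All marker sums given here are of raw intensity, before normalization, and the knockout arrays were dimmer as a whole. Mean raw intensity over all probes was 459.1 to 463.3 on the wild-type arrays and 344.3 to 445.2 on the knockout arrays. Of 6 tested markers of activated and wounded epidermis, in which Sprr genes are known to be induced, none passed on their brightest probes. Their sum was 143826 to 147263 against 83272 to 112890, a sum made mostly by its 4 keratins. Of the 6, 3 were above 0 and 3 below, with a median of -0.20. Krt6b, the brightest, was at -0.68, Krt17 at -0.45 and Krt16 at 0.05, while the stefin genes Stfa2 and Stfa3 were at 0.80 (limma adjusted p = 1.05e-05) and 0.23. A pair of dimmer probes of Krt6a fell, both at -3.90, with the brightest at -0.58. Of 6 tested fibroblast markers 3 fell (Lum at -2.01, Col1a1 at -1.12 and Col3a1 at -1.11), with sums of 7931 to 8845 against 3035 to 4222.

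Of 4 tested mucosal-type keratins none passed (sums 17304 to 17515 against 14870 to 22591), and Krt13, the brightest, was at 0.27, while Krt4 lay just short of the limit at 1.00. Krt4 passed without wild-type array 3 (1.03). It also passed with an offset of 16 (1.045), with the background mode subtracted (1.117) and with 75th percentile scaling (1.007). Of 7 tested neutrophil markers 1 rose (Retnlg, 2.41), 4 were below 0 and the median was -0.04, with sums of 51325 to 53337 against 45740 to 51590. Cxcr2, a chemokine receptor gene, was at -0.95 and the protease gene Mmp9 at -0.91. Cxcr2 passed as a fall without knockout array 3 (-1.09), and Mmp9 without knockout array 1 (-1.06) or 2 (-1.08). In the processing settings named for Krt4, Cxcr2 passed as well (-1.074, -1.326 and -1.022). With the background mode subtracted, Mmp9 also passed (-1.007). Of 4 tested macrophage markers 1 fell (Lyz2, -1.40), of 5 skeletal muscle markers 2 fell (Myl1, at background in the knockout pool and at least 1.48-fold lower there, and Acta1 at -1.09), both tested erythroid markers rose (Alas2 at 1.46 and Hba-a1 at 1.01), and of 3 endothelial markers none passed, the brightest being Pecam1 at 0.10. Hba-a1 was within the limit without wild-type array 1 (0.998) or 2 (0.992) or knockout array 3 (0.94). Acta1 was within it without knockout array 3 (-0.95), and muscle falls numbered 3 without knockout array 1 or 2, with Myh4 added, which was too dim to be tested with all arrays. Myl1 was within the limit with the authors' values (-0.77).

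The genes whose arrays most resembled those of Sprr2k, out of 11799 compared, were Alox12, a lipoxygenase gene, at a distance of 0.048, Gsdma, an epidermal gasdermin gene, at 0.09, Acer1, an epidermal ceramidase gene, at 0.138 and Fbxw9 at 0.142. The distance is the Euclidean one between normalized log2 values over the 6 arrays after each gene's mean is removed. Their differences were 1.36, 1.36, 1.25 and 1.29. Nearest to Sprr1b, the brightest member, were Arhgap17, Tal2, Niban2 and Ubl4a at distances of 0.049 to 0.061, all with differences between -0.15 and -0.14. The 6 arrays hold only 2 RNA pools, so likeness over them mostly restates a shared difference between the pools.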

How the data were processed

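Transcript levels were measured on 6 arrays, grouped by the genotype in their titles. Per the file headers, the deposited values of an array are raw, linear probe intensities. They come without detection p-values or control probes and start far above 0, as unsubtracted background leaves them. The submitters' processing notes name BeadStudio 3. A deposited table of log2 values, in which the authors gave all arrays 1 distribution without changing rank orders, served as an alternative, with its exact method unknown here.

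Background was corrected by normexp in limma (offset 50, which shrinks differences of dim probes), and values were converted to log2 and quantile-normalized. Probes above the median mean signal (23058 of 46116) were tested with limma (version 3.58.1 in R 4.3.3, lmFit and eBayes, intensity trend on), two-sided, with Benjamini-Hochberg adjustment over all tested probes. Precision is limited by the 3 arrays per pool. The script was tested on simulated data. Symbols come from GEO's platform annotation: 29534 probes had 1 symbol, 11 several and 16571 none. Of these, 29476 were looked up by Entrez identifier in RefSeq (GRCm38.p6), and 0 differed.

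The members and gene lists were chosen with earlier results of these data known. Every member probe is reported. From each list, up to 3 largest rises and 3 largest falls past the threshold are named on the brightest tested probe or, with none, the brightest member. Transglutaminases, loricrin, AP-1 genes, Klf4, Anxa1, Rptn, Elf3, Grhl1, Cebpa, the markers Krt5, Krt14, Itga6, Col17a1, Krt1, Krt4, Krt6a, Krt16, Krt17, Stfa2, Stfa3, Cxcr2, Mmp9 and Myh4 and the other Sprr and Lce3 genes are named besides, after their values were seen. Elf3 is on the lists of envelope partners and factors, S100a8 and S100a9 are on the S100 and neutrophil lists, and Sbsn, Dsg1a and Dsc1 are on the partner and spinous lists.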

Additional observations from a re-analysis of the deposited data

How the results depend on the processing

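With every alternative tried (other background corrections, scaling, filters and variance models, the authors' values, a replicate block and each array left out), Sprr2k stayed between 1.32 and 1.41 and Sprr1a between -1.29 and -1.13, both past the threshold. The count of Sprr probes that rose, 2 in the reported setting, was 1 without background correction, with an offset of 100 and with the authors' values, and 1 to 2 when each array was left out (1 without knockout array 1 or 2). Sprr2b was the probe lost, at 0.987, 0.954 and 0.943 in those 3 settings and at 0.981 to 1.21 with an array left out, the 2-fold limit lying within its 95% interval. Sprr2d, near 0 throughout, was at -0.0257 to 0.174 with an array left out. Of 160 recomputed member differences 153 kept their direction and their side of the threshold.

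Of all tested probes, 227 rose and 899 fell. The rises numbered 389 with an offset of 16, 142 with an offset of 100, 137 with the authors' values and 728 with the background mode subtracted and a floor of 50, where 36% of calls were rises in place of 20.2%. The falls numbered 470 where only the 11829 probes above background on every array were tested. Scaling to the 75th percentile moved the median of all probes from 0.0269 to 0.178, a shift that was not corrected for. Sprr2k was then at 1.41 (1.35 in the reported setting), Sprr1a at -1.13 (-1.21) and Sprr2b at 1.02 (1.07). The members therefore did not move by a common amount.

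The array numbers are shared between the pools only as labels. Arrays of the same number correlated at 0.106, -0.13 and 0.0434 in their deviations from the pool means. With the replicate block 227 probes rose and 901 fell, Sprr2k was at 1.35, Sprr2b at 1.07 and Sprr1a at -1.21, and 2 Sprr probes rose and 1 fell. List counts, recomputed after seeing the data, ran from 6 to 8 rises of late cornified envelope genes, 1 to 2 rises and 1 to 3 falls of envelope partners, 0 to 1 rises of S100 genes, 0 to 1 rises and 2 to 3 falls of transcription factors, 1 to 3 falls of skeletal muscle, 1 to 2 rises of erythroid, 0 to 2 falls of neutrophil and 0 to 2 rises of mucosal-type markers. The other Sprr genes had 0 to 1 falls. The 4 to 8 members with an adjusted p under 0.05 numbered 6 in the reported setting. Dim probes such as Sprr2b are limited by their signal over background.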
